A study of Rattus norvegicus with 200 samples.

Results

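Lysosomal enzymes and membrane proteins are described here as 37 rat genes, taken by name from a list and kept where the mean over 200 libraries was 1 CPM or more (CPM, a gene's counts scaled to a common library size). All 37 were present once in the table of 20361 genes, and all 37 met that level, as did 14164 genes of the table. Their mean levels ran from 10.2 CPM for Cd68 to 2449 CPM for Psap. The libraries were bulk RNA-seq of brain cells labelled as microglia, from wild-type adult male Wistar rats. All animals carried the same genotype, and the groups differed in diet (chow, or an HFD, meaning a diet high in fat) and in the feeding schedule (ad libitum, food in the dark phase or food in the light phase). Each of the 6 groups was sampled at 6 Zeitgeber times (ZT, hours counted from lights on at ZT0, with lights off at ZT12), from ZT2 to ZT22 in steps of 4 h. A group held 33 or 34 libraries, with 5 to 7 at each time. The labels name no animal for a library, and no method of cell isolation or purity check is given in the sources used here.

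Lysosomes are acidic organelles that break down material taken up by endocytosis, phagocytosis and autophagy. Soluble hydrolases such as the cathepsins work in the lumen, a V-type proton pump keeps it acidic, and heavily glycosylated proteins such as LAMP1 and LAMP2 line its membrane. In brain, microglia use this system to degrade debris, myelin and synaptic material, and oligodendrocytes and neurons depend on the same genes for lipid and protein turnover. The transcription factor TFEB moves to the nucleus when nutrients are scarce and binds CLEAR elements, which contain the letters CACGTG, in the promoters of many lysosomal genes. The clock factors BMAL1 and CLOCK bind E-boxes with the same letters.

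Promoter windows were read from RefSeq (build GRCr8), from 250 bases before to 50 after the annotated start, for 31 of the 37 members. Asah1, Atp6v1h, Ctsb, Hexa, Ppt1 and Psap were not matched. The letters CACGTG, which read the same on both strands, occurred in 8 of the 31 windows (25.8%), those of Atp6v0d1, Cd63, Ctsd, Ctsf, Gaa, Glb1, Lamp1 and Mcoln1. Over all 27457 windows the share was 6.65%, and over the 11217 windows of genes tested here it was 9.24%. The longer letters GTCACGTG, part of the CLEAR element and overlapping CACGTG, were found on either strand in 6 members (19.4%, against 2.02% of all windows and 3.68% of those tested). TCACGTGA, which also contains CACGTG, was found in 4 members (12.9%, against 0.867% and 1.65%). GAGGAAGT, letters bound by the myeloid factor PU.1, were found on either strand in Ctsc, Ctss and Gla (3 of 31, or 9.68%, against 2.44% and 2.66%). A match is a description of letters in a window and was not tested for binding. The following stretches are shown because they hold the matches of the 5 members whose windows contain GTCACGTG outside Glb1. Each is written 5′ to 3′ on the gene's strand, with CACGTG in capitals.
Lamp1: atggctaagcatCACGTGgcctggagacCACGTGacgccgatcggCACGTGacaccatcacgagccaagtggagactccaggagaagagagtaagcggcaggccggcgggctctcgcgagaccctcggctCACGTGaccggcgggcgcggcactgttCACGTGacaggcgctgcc
Ctsd: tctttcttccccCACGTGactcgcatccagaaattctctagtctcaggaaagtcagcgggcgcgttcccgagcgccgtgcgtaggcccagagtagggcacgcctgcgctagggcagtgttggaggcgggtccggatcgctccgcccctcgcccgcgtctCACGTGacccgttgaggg
Mcoln1: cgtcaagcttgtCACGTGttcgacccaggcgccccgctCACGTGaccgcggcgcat
Atp6v0d1: ccccattgtggtCACGTGagatgcagtgcg
Gaa: ccgcccacaaacCACGTGacccacgctgcc
The Lamp1 stretch lies at chr16:83075084-83075258 on the minus strand and holds 5 copies, the farthest starting 183 bases before the annotated start. The Ctsd stretch lies at chr1:206968814-206968990 on the minus strand, with 2 copies, the farthest 157 bases before the start. The Mcoln1 stretch lies at chr12:6358224-6358279 on the plus strand, with 2 copies, the farthest 22 bases before the start. The Atp6v0d1 copy at chr19:50357283-50357312 (minus strand) begins 52 bases before the start, and the Gaa copy at chr10:105028276-105028305 (plus strand) begins 67 bases before it. The submitters' processing notes name the build Rnor_6.0 for the expression data, so these GRCr8 positions were not set against any coordinate of the study.

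The libraries held 3777749 to 11636262 gene counts, with a median of 7548305. Markers of microglia were detected in every group, as were those of other brain cells, and no marker was at 0 in all libraries. The summed level of 18 microglial markers had a median of 1061 CPM over the 200 libraries, against 15812 CPM for 12 oligodendrocyte markers and 5773 CPM for 15 neuronal markers. The level of the middle gene of each list was 44.8 CPM for microglia, 483 CPM for oligodendrocytes and 208 CPM for neurons. A high content of erythrocyte RNA, over 5 times the median marker sum, set 10 libraries apart, 8 of them on chow. The titles form a separate numbered series for each diet, so diet and title series cannot be told apart. Libraries with consecutive titles mostly shared group and time.

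Compared per transcript length, in FPKM (fragments per kilobase of transcript, scaled to the library), Psap, the precursor of the saposins that help enzymes reach sphingolipids, was the highest member. Its median was 1062 FPKM (836 to 1458 over 200 libraries). The cysteine proteases Ctsb and Ctss followed at medians of 729 (560 to 911) and 298 FPKM (186 to 596). Next in order came Atp6ap1, an accessory subunit of the proton pump (289 FPKM), Lamp1 (240 FPKM), the aspartyl protease Ctsd (195 FPKM), Ctsa (185 FPKM), Cd63 (134 FPKM), Ctsf (122 FPKM) and Ppt1 (109 FPKM). The lowest were Gla (16.8 FPKM), Gusb (12.2 FPKM), the acid lipase gene Lipa (12.2 FPKM), Cd68 (10.5 FPKM), Ctsk (10.4 FPKM) and Ctsc (7.07 FPKM). Interquartile ranges of neighbours in this order overlapped except after Psap, Ctsb, Atp6ap1, Lamp1, Ctsa, Npc1, Gla and Ctsk. The order of Ctss and Atp6ap1, or of Lipa, Gusb and Cd68, is therefore unsure by these ranges. Differences between genes within a library were not computed. Summed over all 37 members, the level had a median of 8359 CPM in chow ad libitum, 8378 CPM in chow dark feeding and 8349 CPM in chow light feeding. On HFD the medians were 8452, 8410 and 8835 CPM, and the ranges of all 6 groups overlapped.

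The members varied with markers of different cell types. After the mean of each group and time was removed, each member's log2 CPM was correlated with the mean log2 CPM of 5 marker lists over 200 libraries. These are 185 relations, with Benjamini-Hochberg adjusted permutation p-values from 100000 resamples. Ctsz, Npc2 and Ctss, a cathepsin with a role in antigen presentation, lay closest to the microglial score (r = 0.913, rho = 0.887, adjusted permutation p = 2.85e-05, r = 0.912, rho = 0.895, adjusted permutation p = 2.85e-05 and r = 0.909, rho = 0.882, adjusted permutation p = 2.85e-05). The lowest r with that score were those of the pump genes Atp6v1a (r = -0.250, rho = -0.218, adjusted permutation p = 0.00885), Atp6v0d1 (r = -0.215, rho = -0.218, adjusted permutation p = 0.0151) and Atp6ap1 (r = -0.129, rho = -0.072, adjusted permutation p = 0.147). The oligodendrocyte score ran closest to Npc1, the membrane cholesterol exporter (r = 0.885, rho = 0.884, adjusted permutation p = 2.85e-05), Lamp1 (r = 0.716, rho = 0.703, adjusted permutation p = 2.85e-05) and the tripeptidyl peptidase Tpp1 (r = 0.712, rho = 0.685, adjusted permutation p = 2.85e-05). Gaa (r = -0.452, rho = -0.408, adjusted permutation p = 2.85e-05), Atp6ap1 (r = -0.234, rho = -0.176, adjusted permutation p = 0.00668) and Neu1 (r = -0.231, rho = -0.188, adjusted permutation p = 0.00883) were lowest with it. For neurons the highest were Atp6v1a (r = 0.586, rho = 0.589, adjusted permutation p = 2.85e-05), the glycogen-degrading Gaa (r = 0.551, rho = 0.526, adjusted permutation p = 2.85e-05) and Atp6v0d1 (r = 0.536, rho = 0.527, adjusted permutation p = 2.85e-05), and the lowest Npc1 (r = -0.606, rho = -0.562, adjusted permutation p = 2.85e-05), Tpp1 (r = -0.529, rho = -0.472, adjusted permutation p = 2.85e-05) and Man2b1 (r = -0.501, rho = -0.471, adjusted permutation p = 2.85e-05).

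Correlations with the 2 remaining scores were weaker. Ctsh, Npc2 and Ctsz were highest with astrocytes (r = 0.402, 0.387 and 0.355, with rho = 0.369, 0.344 and 0.336) and Atp6ap1, Mcoln1 and Atp6v1h lowest (r = -0.386, -0.331 and -0.292, with rho = -0.367, -0.292 and -0.253). Ctsh, Ctsz and Man2b1 were highest with endothelium (r = 0.546, 0.514 and 0.510, with rho = 0.506, 0.488 and 0.417) and Atp6v1a, Atp6ap1 and Atp6v1h lowest (r = -0.434, -0.423 and -0.393, with rho = -0.318, -0.416 and -0.320). These 12 relations had adjusted permutation p between 2.9e-05 and 0.00213. Of the 37 members, 17 had their highest r with microglia, 11 with neurons, 8 with oligodendrocytes and 1, Ctsk, with endothelium. Microglia-leaning members included 5 of the cysteine cathepsins (Ctsz, Ctss, Ctsh, Ctsc and Ctsl), Npc2, Grn, Lipa, Cd68 and Gusb. The 8 oligodendrocyte-leaning members were Npc1, Lamp1, Tpp1, Lamp2, Scarb2, Tfeb, Hexa and Asah1, and the neuron-leaning members held all 4 pump genes. Without the 2 libraries farthest from each score's median no r moved by more than 0.1. Within diets the r of Ctsz with microglia was 0.949 on chow and 0.837 on HFD, and that of Npc1 with oligodendrocytes was 0.896 and 0.869. Over all relations r moved by more than 0.1 in 44 of 185 on chow alone and in 90 of 185 on HFD alone. The scores themselves were correlated, at r = 0.537 between microglia and oligodendrocytes and -0.69 between oligodendrocytes and neurons.

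**Figure D1:**
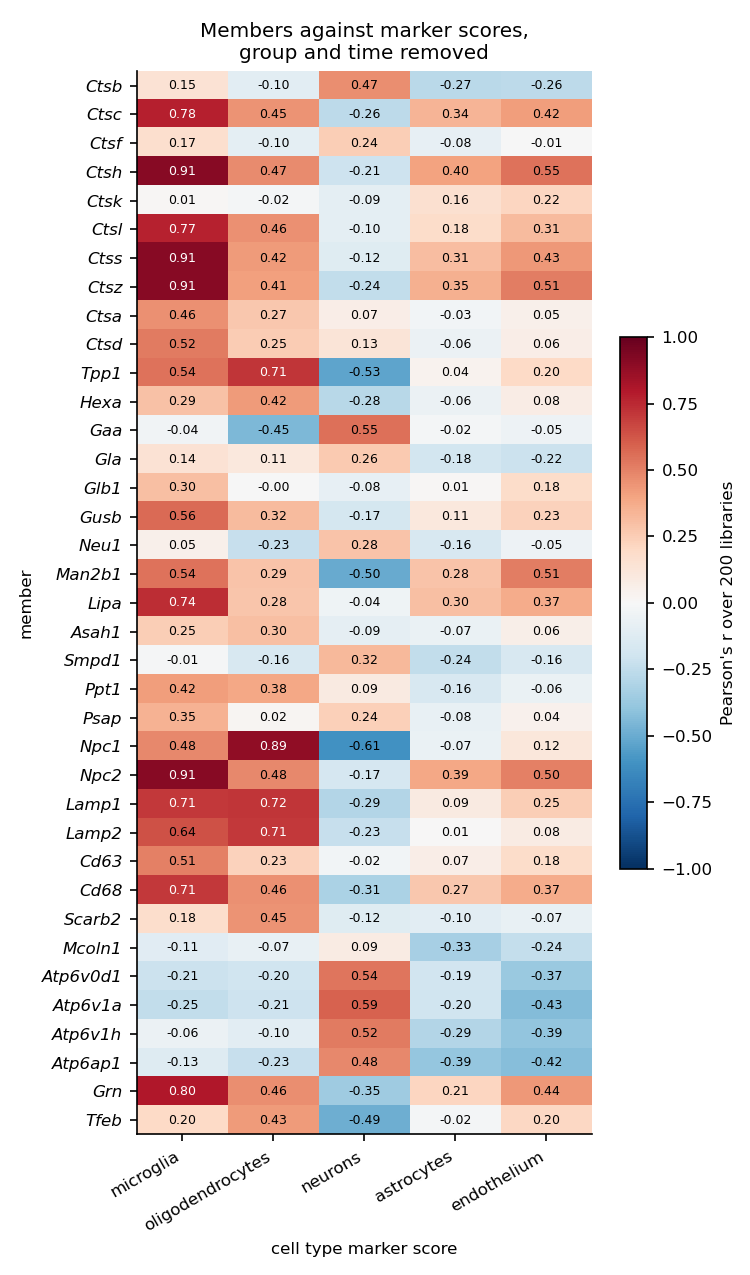
Pearson's r over 200 libraries between the log2 CPM of each member (rows, in order of role) and the marker score of each cell type (columns), with group and time means removed. Ctsz, Npc2, Ctss and Ctsh are darkest in the microglia column, Npc1 in the oligodendrocyte column and the 4 pump genes Atp6v0d1, Atp6v1a, Atp6v1h and Atp6ap1 are positive in the neuron column.

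Diet was compared within each schedule, with time as a factor, in edgeR's quasi-likelihood test, and a member is called where its p, adjusted over 14393 genes, was under 0.05. Differences are log2 fold changes of HFD over chow. Scarb2, Npc1 and Lamp2 were higher on HFD under all 3 schedules, and Ctsz, Npc2 and Ctsh were lower under all 3. With runs of consecutive titles as the unit the members called were 0 under ad libitum, 6 under dark and 7 under light feeding, so that none was called under all 3. No member was called in opposite directions, 23 members were called at least once and 14 never. Under ad libitum feeding 3 members (8.11%) were higher, where 9.96% of all genes were, and 6 (16.2%) were lower, where 10.1% of all genes were. In the dark-fed groups 8 members (21.6%) were higher and 8 lower, with 22.8% and 23.1% of all genes. In the light-fed groups 13 members (35.1%) were higher and 6 (16.2%) lower, with 25.2% and 25.1% of all genes. The median difference of the members was -0.03, -0.04 and 0.06 in that order, and that of all genes -0.01 in each. Under ad libitum and dark feeding the shares higher lay near those of all genes, so that the results are about which members moved, not how many. Since nothing says that the libraries came from separate animals, p-values measure the spread between libraries. In bulk RNA, fewer cells of a type and less RNA per cell cannot be told apart.

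**Figure D2:**
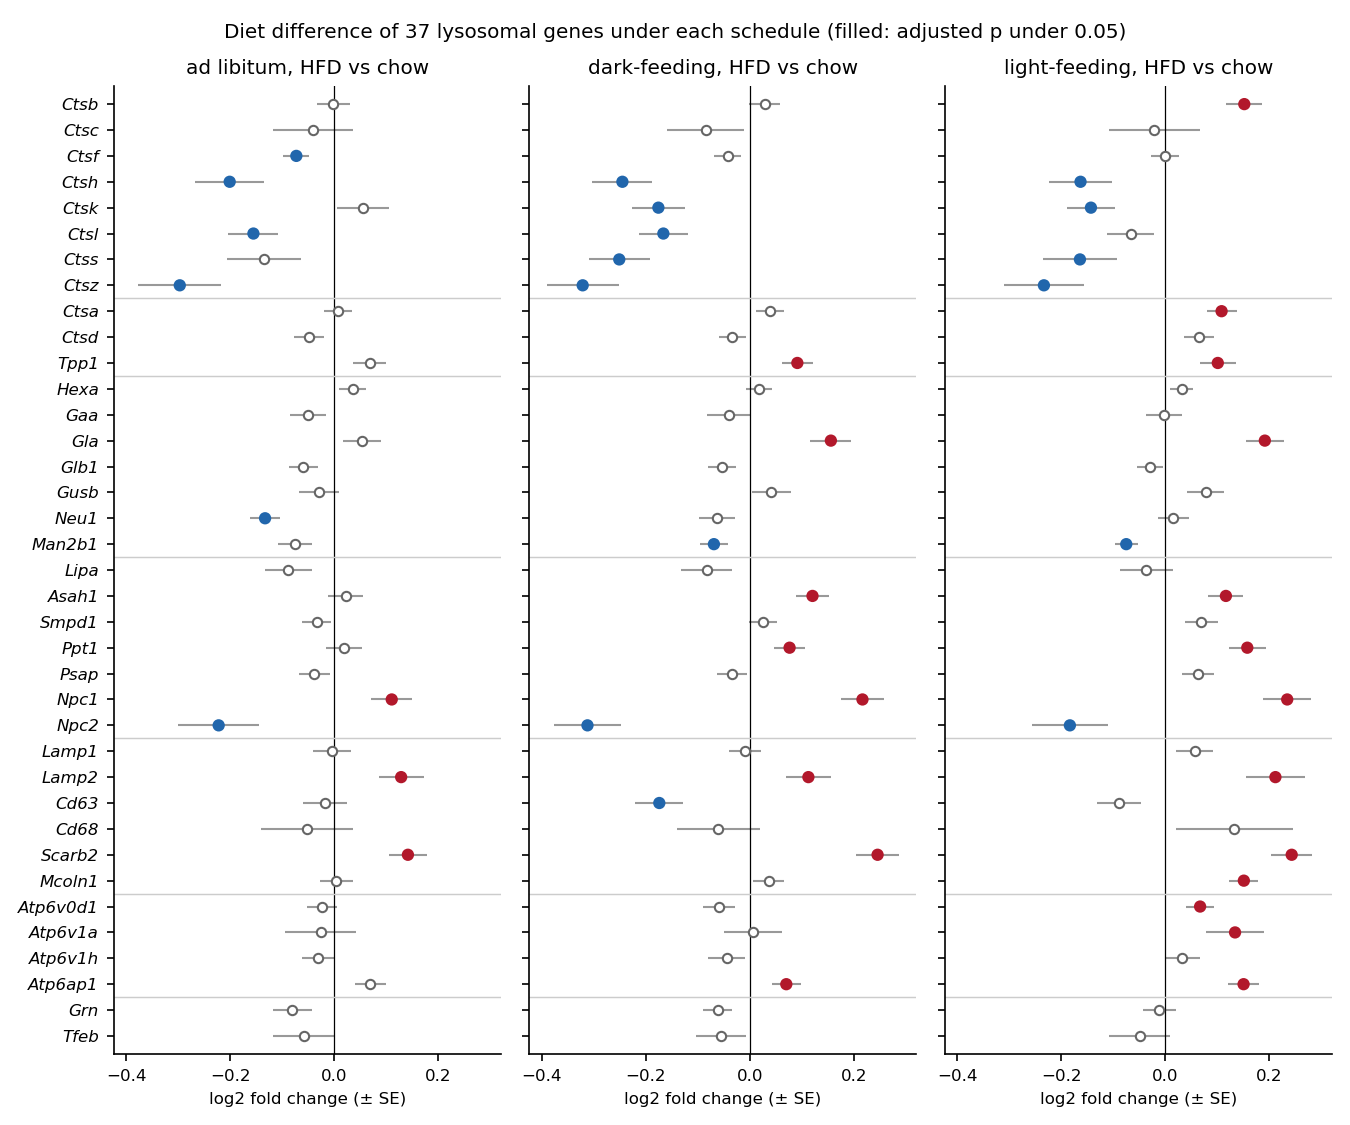
Log2 fold change of HFD over chow (x axis, ± SE) for the 37 members (y axis, grouped by role) under ad libitum, dark and light feeding; filled points have an adjusted p under 0.05, blue where lower on HFD and red where higher. Ctsz, Ctsh and Npc2 are filled on the left in every panel and Scarb2, Npc1 and Lamp2 on the right.

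Among the 8 cysteine cathepsins, proteases of the lumen, 4 were lower on HFD under ad libitum feeding and 5 under dark feeding, none higher, while under light feeding 4 were lower and 1 higher. Ctsz (cathepsin Z, a carboxypeptidase) had lowest, median and highest levels of 18.6, 32.1 and 61.2 CPM under ad libitum feeding on chow, 17.5, 34.4 and 59.2 CPM in chow dark feeding and 23.6, 30.8 and 56.4 CPM in chow light feeding. On HFD they were 18.8, 27.9 and 38.9 CPM (ad libitum), 18.2, 27.3 and 44.6 CPM (dark) and 17.7, 27.9 and 39.5 CPM (light). The HFD medians were lower and the highest chow libraries lay above every HFD library of the same schedule, but the groups overlapped. Ctsz fell by 0.30 (SE 0.080, adjusted p = 0.00576) under ad libitum, by 0.32 (SE 0.069, adjusted p = 0.000121) under dark and by 0.23 (SE 0.077, adjusted p = 0.00866) under light feeding. Ctsh, an aminopeptidase, ranged over 41.3, 61.9 and 114 CPM under ad libitum feeding on chow, 35.0, 65.8 and 101 CPM in chow dark feeding and 51.1, 62.0 and 105 CPM in chow light feeding. Its HFD levels were 38.5, 57.0 and 82.2 CPM (ad libitum), 40.2, 52.1 and 84.6 CPM (dark) and 38.1, 58.4 and 74.3 CPM (light), again with lower medians and overlapping groups. It fell by 0.20 (SE 0.067, adjusted p = 0.0245), 0.24 (SE 0.058, adjusted p = 0.000401) and 0.16 (SE 0.061, adjusted p = 0.0206).

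The remaining cysteine cathepsins differed between schedules in what passed. Ctss fell by 0.25 (SE 0.058, adjusted p = 0.000338) under dark feeding and by 0.16 (SE 0.071, adjusted p = 0.0472) under light feeding, and was at -0.14 (SE 0.071, adjusted p = 0.172) under ad libitum feeding. Ctsl, a general endopeptidase of the lumen, fell by 0.16 (SE 0.048, adjusted p = 0.0163) under ad libitum and by 0.17 (SE 0.047, adjusted p = 0.0028) under dark feeding, and was at -0.067 (SE 0.045, adjusted p = 0.212) under light feeding. Ctsk, best known as the bone-degrading cathepsin of osteoclasts, fell by 0.18 (SE 0.051, adjusted p = 0.00374) and 0.14 (SE 0.046, adjusted p = 0.00801) under dark and light feeding. Ctsf fell by 0.073 (SE 0.025, adjusted p = 0.0324) under ad libitum feeding alone. The only cathepsin of this class higher on HFD was Ctsb, at 0.15 (SE 0.035, adjusted p = 0.000215) under light feeding. Ctsc, the dipeptidyl peptidase that activates granule proteases, was called nowhere and lay between -0.085 and -0.021.

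Of the 3 other proteases, Tpp1, whose loss causes a childhood neuronal ceroid lipofuscinosis, rose by 0.091 (SE 0.029, adjusted p = 0.00814) under dark and 0.10 (SE 0.035, adjusted p = 0.0119) under light feeding. Ctsa, the protective protein of the neuraminidase complex, rose by 0.11 (SE 0.029, adjusted p = 0.00127) under light feeding. Ctsd was called in none of the diet comparisons (-0.048, -0.033 and 0.065). Glycosidases remove sugars from glycoproteins, glycolipids and glycogen, and 3 of 7 were called. Gla, the α-galactosidase deficient in Fabry disease, rose by 0.16 (SE 0.040, adjusted p = 0.00098) under dark and 0.19 (SE 0.036, adjusted p = 1.04e-05) under light feeding. Its median went from 29.2 to 32.8 CPM and from 29.5 to 33.9 CPM, and 30 and 29 of the 33 HFD libraries lay above the chow median. Neu1, the sialidase that works beside Ctsa, fell by 0.13 (SE 0.029, adjusted p = 0.000991) under ad libitum feeding, where 2 of 34 HFD libraries lay above the chow median. Neu1 ranged over 56.1, 70.3 and 83.3 CPM in chow and 55.8, 65.9 and 71.3 CPM in HFD ad libitum libraries, with overlap. Man2b1, the α-mannosidase, fell by 0.069 (SE 0.028, adjusted p = 0.0343) and 0.075 (SE 0.023, adjusted p = 0.00423) under dark and light feeding. Hexa, Gaa, Glb1 and Gusb were not called.

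The RNAs of the pair that moves cholesterol out of the lysosome differed with diet in opposite directions. Npc2 varied most with the microglial score and Npc1 with that of oligodendrocytes. With the marker scores as covariates Npc2 was called under no schedule and stood at 0.093 under light feeding. In that fit Npc1 was called under dark feeding alone (0.10). NPC2 is the soluble carrier in the lumen, and NPC1 the membrane protein that takes cholesterol from it. Npc2 ranged over 57.9, 94.8 and 199.9 CPM under ad libitum feeding on chow, 59.0, 98.2 and 170.5 CPM in chow dark and 73.4, 92.8 and 180.2 CPM in chow light feeding, against 54.8, 85.0 and 142 CPM (ad libitum), 60.8, 84.0 and 131 CPM (dark) and 58.7, 91.1 and 109 CPM (light) on HFD. It fell by 0.22 (SE 0.078, adjusted p = 0.0337), 0.31 (SE 0.064, adjusted p = 6.55e-05) and 0.18 (SE 0.073, adjusted p = 0.0321). Npc1 ranged over 137, 189.6 and 254 CPM under ad libitum feeding on chow, 132, 186 and 256 CPM in chow dark and 129.9, 186 and 281 CPM in chow light feeding, against 169.7, 204 and 266 CPM (ad libitum), 162, 217 and 267 CPM (dark) and 169, 223 and 284 CPM (light) on HFD. It rose by 0.11 (SE 0.039, adjusted p = 0.0379), 0.22 (SE 0.041, adjusted p = 1.96e-05) and 0.23 (SE 0.047, adjusted p = 2.74e-05). For both genes the groups overlapped, and 27 of 34, 30 of 33 and 31 of 33 HFD libraries lay above the chow median for Npc1. Among the other genes of lipid breakdown, the ceramidase Asah1 rose by 0.12 (SE 0.031, adjusted p = 0.00122) and 0.12 (SE 0.034, adjusted p = 0.003), and the thioesterase Ppt1 by 0.076 (SE 0.029, adjusted p = 0.027) and 0.16 (SE 0.035, adjusted p = 0.00015), under dark and light feeding. Lipa, Smpd1 (acid sphingomyelinase) and Psap were not called under any schedule.

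Scarb2 encodes LIMP-2, a membrane protein that serves as a sorting receptor to lysosomes, and had the smallest adjusted p of any member under dark and light feeding. Its levels were 72.6, 87.6 and 119 CPM under ad libitum feeding on chow, 64.4, 83.2 and 119 CPM in chow dark and 69.5, 88.6 and 127 CPM in chow light feeding. On HFD they were 78.2, 98.6 and 118 CPM (ad libitum), 78.0, 101 and 119 CPM (dark) and 90.6, 104 and 143 CPM (light). All 33 HFD light-feeding libraries lay above the chow median of that schedule, though the ranges overlapped. Scarb2 rose by 0.14 (SE 0.036, adjusted p = 0.00358), 0.25 (SE 0.041, adjusted p = 2.02e-06) and 0.24 (SE 0.039, adjusted p = 5.6e-07). Lamp2, a structural membrane protein that also serves as a receptor in chaperone-mediated autophagy, stood at 117, 155 and 204 CPM (ad libitum), 108, 151 and 201 CPM (dark) and 102, 144 and 222 CPM (light) on chow. On HFD it stood at 137, 175 and 231 CPM (ad libitum), 134, 168 and 205 CPM (dark) and 129, 178 and 229 CPM (light), with higher medians and overlapping ranges. It rose by 0.13 (SE 0.043, adjusted p = 0.0272), 0.11 (SE 0.044, adjusted p = 0.0292) and 0.21 (SE 0.056, adjusted p = 0.00132). Its relative Lamp1 was called in none of the diet comparisons (-0.0045, -0.0087 and 0.056).

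**Figure D3:**
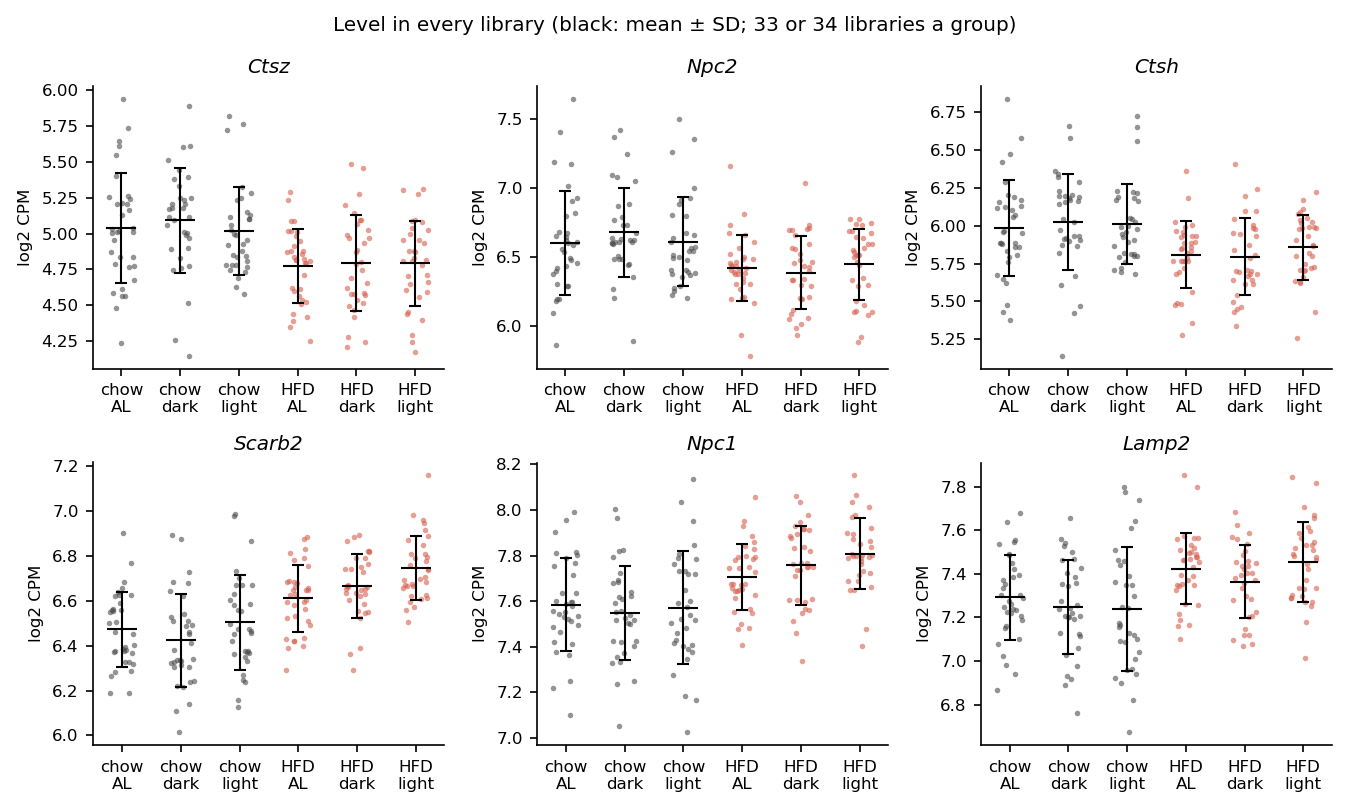
Log2 CPM (y axis) of the 6 members called in the same direction under all 3 schedules, in each of 200 libraries (points) by group (x axis; AL, ad libitum), with mean ± SD. The groups overlap in every panel, and the 3 HFD means lie below the 3 chow means for Ctsz, Npc2 and Ctsh and above them for Scarb2, Npc1 and Lamp2.

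The calcium channel gene Mcoln1, whose channel releases calcium from lysosomes and activates TFEB, rose by 0.15 (SE 0.028, adjusted p = 8.75e-06) under light feeding alone. The tetraspanin Cd63 fell by 0.17 (SE 0.046, adjusted p = 0.00153) under dark feeding, and Cd68, a macrophage membrane protein related to the LAMPs, was called nowhere. No pump gene was called under ad libitum feeding, 1 of 4 was higher under dark feeding and 3 of 4 under light feeding. Atp6ap1 rose by 0.070 (SE 0.028, adjusted p = 0.0337) and 0.15 (SE 0.029, adjusted p = 2.04e-05). Atp6v1a, the ATP-hydrolysing subunit, rose by 0.13 (SE 0.055, adjusted p = 0.0377) and Atp6v0d1, a subunit of the membrane sector, by 0.067 (SE 0.027, adjusted p = 0.0349) under light feeding. Grn, whose product progranulin supports lysosomal enzymes, and Tfeb were called under no schedule.

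Counted by the marker list with which each had its highest r, the members differed in the direction of their diet calls. No minimum was set for that r. Mcoln1 was counted with neurons at r = 0.085 (adjusted permutation p = 0.346). Lamp1 was counted with oligodendrocytes at r = 0.716, against 0.707 with microglia. Of the 17 microglia-leaning members 0 were higher and 4 lower under ad libitum feeding, 1 and 7 under dark feeding, and 2 and 5 under light feeding. Of the 8 oligodendrocyte-leaning members 3, 5 and 5 were higher and 0 lower. Of the 11 neuron-leaning members 0, 2 and 6 were higher and 2, 0 and 0 lower. The marker lists moved in the same comparisons. Microglial markers fell in 7, 9 and 9 of 17 and rose in 0, with chow medians of the summed level at 1131, 1178 and 1071 CPM against HFD medians of 986, 975 and 983 CPM. Oligodendrocyte markers rose in 3, 8 and 8 of 12 and fell in 0, with chow medians of the sum at 15238, 14473 and 14334 CPM against HFD medians of 16141, 16251 and 17062 CPM. Neuronal markers were higher in 1, 2 and 3 of 15 and lower in 2, 7 and 5.

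With 5 marker scores as covariates 0 members were called under ad libitum feeding. Under dark feeding 5 were, all higher: Scarb2 (0.19), Npc1 (0.10), Gla (0.18), Asah1 (0.15) and Ppt1 (0.10). Under light feeding 12 were called, 11 higher and 1 lower, and 7 of these were called without the scores: Scarb2 (0.15), Lamp2 (0.18), Gla (0.15), Atp6v1a (0.27), Atp6v0d1 (0.10), Ctsa (0.10) and Ppt1 (0.11). Ctsz stood at -0.021 under dark and 0.014 under light feeding in that fit, against -0.32 and -0.23 without the scores. Whether a covariate of this kind removes an effect within the cells or a shift in cell content was not tested. The other marker lists gave these counts under ad libitum, dark and light feeding. Astrocyte markers fell in 0, 13 and 13 of 14 and rose in 0, 1 and 1, and endothelial markers fell in 1, 8 and 10 of 11 and rose in 0, 0 and 1. Mural cell markers fell in 1, 5 and 5 of 6 and rose in 0, 1 and 0, and fibroblast markers fell in 0, 7 and 7 of 7. Markers of border macrophages rose in 0, 3 and 2 of 5. Erythrocyte markers fell in 5, 6 and 3 of 6, markers of monocytes and neutrophils in 0, 1 and 0 of 4, and markers of T and NK cells fell in 1, 0 and 0 of 8 and rose in 0, 0 and 1. Without the 10 libraries rich in erythrocyte RNA the members called were 6, 16 and 21. The ad libitum count was 3 without ZT14 and 2 without ZT18, and the dark-feeding count 10 without ZT2.

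On chow no member was called for a difference in mean level between feeding schedules. Dark against ad libitum feeding gave 0 calls among the members and 0% of all genes higher or lower. Light against ad libitum feeding gave 0 members, with 0.528% of all genes higher and 1.07% lower. Light against dark feeding gave 0 members and 0% of all genes in either direction. At an unadjusted p under 0.05, 0 members stood out in each of the 3, and DESeq2 also called 0 in each. The smallest adjusted p were those of Gaa (0.062, SE 0.039, adjusted p = 0.52) and Gla (-0.062, SE 0.040, adjusted p = 0.53) for dark against ad libitum feeding. For light against ad libitum feeding they were those of Atp6ap1 (-0.054, SE 0.029, adjusted p = 0.299) and Gla (-0.065, SE 0.035, adjusted p = 0.311), and for light against dark feeding those of Mcoln1 (-0.058, SE 0.032, adjusted p = 1) and Cd68 (-0.16, SE 0.10, adjusted p = 1). The comparisons against ad libitum share those control libraries.

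On HFD, 10 of 37 members (27.0%) were higher under light than under ad libitum feeding, where 5.70% of all genes were higher. There was 1 lower member (2.70%), where 5.00% of all genes were lower. Schedule and title order, described in the next paragraph, cannot be fully told apart in this comparison. In all, 32 of 37 differences were positive, with a median of 0.06 against -0.0012 over all genes. Ctsd rose by 0.11 (SE 0.020, adjusted p = 0.000407), with levels of 291, 324 and 369 CPM in ad libitum and 312, 345 and 393 CPM in light-fed libraries. Ppt1 rose by 0.15 (SE 0.030, adjusted p = 0.0007), from 89.6, 108 and 136 CPM to 108, 122 and 139 CPM, and all 33 light-fed libraries lay above the ad libitum median. For both genes the groups overlapped. Neu1 rose by 0.13 (SE 0.027, adjusted p = 0.00103), Mcoln1 by 0.12 (SE 0.028, adjusted p = 0.00514), Scarb2 by 0.14 (SE 0.033, adjusted p = 0.0052) and Psap by 0.10 (SE 0.025, adjusted p = 0.0091). The other calls were Ctsb (0.11), Ctsa (0.084), Lamp1 (0.089) and Gaa (0.10), higher, and Ctsk (-0.18, SE 0.051, adjusted p = 0.0171), lower. By role, the higher members were 2 of 3 other proteases, 2 of 7 glycosidases, 2 of 7 lipid genes, 3 of 6 membrane genes, 1 of 8 cysteine cathepsins and 0 of 4 pump genes.

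The HFD ad libitum libraries stood apart in the order of the titles. Of the 34 HFD ad libitum libraries, 28 have title numbers below 47, the lowest number of any restricted HFD library. With the title number as a smooth covariate 0 of the 11 members were called and the median of the members was 0.01, and Ctsb, Lamp1, Ppt1 and Scarb2 turned negative. With the marker scores as covariates 10 of the 11 remained, and without ZT14 or ZT22 the members called were 6 and 3. With runs of titles as the unit 0 were called. None of the 17 microglial and 12 oligodendrocyte markers was called in this comparison, while 6 of 14 astrocyte and 5 of 6 mural cell markers fell. Dark against ad libitum feeding on HFD gave 0 called members, with 1.72% of all genes higher and 2.98% lower. There the unadjusted p of 6 members was under 0.05, and 1 was called by DESeq2. The nearest were Ctsk (-0.16, SE 0.050, adjusted p = 0.0535) and Cd63 (-0.12, SE 0.044, adjusted p = 0.0994). Light against dark feeding on HFD gave 1 member, Ppt1 (0.12, SE 0.027, adjusted p = 0.0434), higher in 32 of 33 light-fed libraries than the dark-fed median, where 0.0486% of all genes were higher and 0.0347% lower. It was lost in the fit without the libraries rich in erythrocyte RNA, which left 0 members, and without ZT6, ZT14 or ZT18.

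The interaction test asks whether the schedule difference itself depended on diet. For dark against ad libitum feeding 0 members passed (0.792% of all genes), the unadjusted p was under 0.05 for 3, and 0 were called by DESeq2. Ctsk (-0.23, SE 0.072, adjusted p = 0.0892) and Cd63 (-0.16, SE 0.065, adjusted p = 0.217) had the smallest p. For light against ad libitum feeding 3 members (8.11%) passed, against 9.81% of all genes, a share near the background. These were Mcoln1 (0.15, SE 0.043, adjusted p = 0.0131), Neu1 (0.15, SE 0.043, adjusted p = 0.0137) and Ctsb (0.16, SE 0.048, adjusted p = 0.0243), each with a more positive light-feeding difference on HFD than on chow. On chow the ad libitum and light-feeding medians of Mcoln1 were 123 and 122 CPM, and on HFD 124 and 135 CPM. Neu1 went from 70.3 to 70.7 CPM by its chow medians and from 65.9 to 71.3 CPM by those on HFD. For Ctsb the chow medians were 1200.2 and 1157 CPM, and those on HFD 1226 and 1296 CPM. In all, 32 of 37 members had a positive interaction, with a median of 0.08 against 0.0022 over all genes. Markers moved in the same test, with 13 of 14 astrocyte, 6 of 7 fibroblast, 5 of 11 endothelial and 4 of 6 mural cell markers lower. Of 15 neuronal markers 4 were lower and 1 higher, and 0 of 17 microglial and 0 of 12 oligodendrocyte markers were called. With the marker scores as covariates 0 members passed, and with runs of titles as the unit 0. The title order of the HFD ad libitum libraries enters the interaction too, which was not fitted with the title number as a covariate. The count was 11 without ZT18 and 0 without ZT2, ZT6 or ZT10.

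Daily rhythms were fitted as a 24 h cosine within each group, with the peak-to-trough difference in log2 as the size. On chow, more members were called rhythmic under restricted than under ad libitum feeding, a difference in counts that was not tested. Under chow ad libitum feeding 1 member passed (2.70%, against 4.56% of all genes), under dark feeding 15 (40.5%, against 22.9%) and under light feeding 14 (37.8%, against 20.3%). Under dark feeding the smallest adjusted p were those of Scarb2 (peak to trough 0.37, adjusted p = 0.00328), Npc1 (peak to trough 0.37, adjusted p = 0.00374), Ctsk (peak to trough 0.46, adjusted p = 0.00392) and Tfeb (peak to trough 0.44, adjusted p = 0.00485). Under light feeding they were those of Scarb2 (peak to trough 0.44, adjusted p = 0.000271), Npc1 (peak to trough 0.48, adjusted p = 0.00124), Lamp2 (peak to trough 0.53, adjusted p = 0.00218) and Ctsd (peak to trough 0.28, adjusted p = 0.00544). The ad libitum call was Tfeb. Over all 37 members the median peak to trough was 0.23 under chow dark and chow light feeding, against 0.24 and 0.21 over all genes. Called members peaked in the light phase in 11 of 15 under dark feeding and in 1 of 14 under light feeding, where the peaks lay within 5.45 h of each other. Peak times were not fitted for all genes, so the phase counts here and below have no background share. The dark-feeding count was 6 without ZT10 or ZT18, and the light-feeding count 3, 5 and 9 without ZT6, ZT10 and ZT22. With runs of titles as the unit 0 members were called in each of the 3 groups, and with the marker scores as covariates 5 under dark and 0 under light feeding. Tfeb was lost under ad libitum feeding without ZT2 or ZT18, which left 0 members.

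The test of the difference between the 2 rhythms passed for 26 of 37 members (70.3%), where 37.0% of all genes passed. The median size of the difference was 0.36 over the members and 0.37 over all genes. By role these were 7 of 8 cysteine cathepsins, 3 of 3 other proteases, 4 of 7 glycosidases, 6 of 7 lipid genes, 4 of 6 membrane genes, 2 of 4 pump genes and 0 of 2 regulators. Of the 26, 22 peaked in the light phase under dark feeding, and 22 peaked in the dark phase under light feeding, in each case the phase without food. Without peak times of all genes, whether this is particular to the members was not tested. The median of the shortest gap between the 2 peaks was 10.7 h (4.02 to 11.8 h). These members were chosen by the difference itself in the same libraries, which favours peaks far apart. Some of the peaks come from fits without a called rhythm. The difference was called for 6 of the 8 members with CACGTG in the promoter window and for 15 of the 23 with a window without it. Between light and dark feeding on HFD these counts were 2 of 8 and 13 of 23, and neither pair was tested.

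Scarb2 showed this most clearly by its adjusted p (size 0.80, adjusted p = 6.41e-07). Under dark feeding its mean was 75.8 ± 9.54 CPM (SD, n = 5) at ZT2, 92.0 ± 7.91 CPM (SD, n = 6) at ZT6 and 106 ± 11.0 CPM (SD, n = 6) at ZT10. At ZT14, ZT18 and ZT22 it was 79.5 ± 8.51 CPM (SD, n = 5), 82.6 ± 6.31 CPM (SD, n = 6) and 79.4 ± 3.25 CPM (SD, n = 5). Scarb2 was thus highest late in the light phase and low through the night. Under light feeding its mean was 92.4 ± 7.24 CPM (SD, n = 5) at ZT2, 76.3 ± 7.53 CPM (SD, n = 5) at ZT6 and 83.4 ± 4.43 CPM (SD, n = 6) at ZT10. At ZT14, ZT18 and ZT22 it was 84.8 ± 4.23 CPM (SD, n = 5), 98.5 ± 11.5 CPM (SD, n = 6) and 109 ± 13.3 CPM (SD, n = 6). The order of times was turned about, with the lowest mean at ZT6 and the highest at ZT22. The fitted peaks were at ZT9.55 ± 0.885 h and ZT20.8 ± 0.632 h.

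Npc1 (size 0.77, adjusted p = 8.7e-06) peaked at ZT10.7 ± 0.831 h under dark and ZT19.2 ± 0.748 h under light feeding. Its mean was 223 ± 26.7 CPM (SD, n = 6) at ZT10 and 168 ± 13.4 CPM (SD, n = 5) at ZT22 under dark feeding, and 152 ± 15.3 CPM (SD, n = 5) at ZT6 and 218 ± 37.4 CPM (SD, n = 6) at ZT18 under light feeding. Lamp2 (size 0.86, adjusted p = 1.29e-05) peaked at ZT9.72 ± 0.924 h and ZT19.5 ± 0.823 h, with 117 ± 9.62 CPM (SD, n = 5) at ZT6 and 179 ± 31.3 CPM (SD, n = 6) at ZT22 under light feeding. Lamp1 peaked at ZT9.65 ± 0.941 h and ZT21.0 ± 1.07 h (size 0.53, adjusted p = 0.000117). At ZT6 and ZT22 it stood at 436 ± 36.1 CPM (SD, n = 6) and 397 ± 15.0 CPM (SD, n = 5) under dark feeding and at 379.8 ± 32.4 CPM (SD, n = 5) and 467 ± 50.6 CPM (SD, n = 6) under light feeding. Ppt1 (size 0.54, adjusted p = 0.000118) peaked at ZT6.70 ± 0.934 h and ZT19.3 ± 1.04 h, and Psap (size 0.49, adjusted p = 0.000169) at ZT9.20 ± 1.02 h and ZT21.4 ± 1.06 h. Psap, the most abundant member, went from 2358 ± 90.9 CPM (SD, n = 5) at ZT22 to 2726 ± 261 CPM (SD, n = 6) at ZT10 under dark feeding and from 2218 ± 179 CPM (SD, n = 6) at ZT10 to 2745 ± 274 CPM (SD, n = 6) at ZT22 under light feeding.

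By fitted peak Ctsk and Atp6v0d1 had the reverse order, with a peak in the dark phase under dark feeding and in the light phase under light feeding. The light-fed peak of Atp6v0d1 lay within its SE of lights on, so its phase is unsure, and its rhythm was not called there. Ctsk peaked at ZT19.5 ± 0.884 h under dark and ZT6.44 ± 2.18 h under light feeding, where its own rhythm was not called (size 0.64, adjusted p = 0.00131 for the difference). Atp6v0d1 and Atp6v1h, pump subunits, peaked at ZT18.1 ± 1.29 h and ZT12.8 ± 1.21 h under dark feeding and at ZT0.102 ± 1.33 h and ZT19.2 ± 1.17 h under light feeding. Hexa, Glb1, Gla, Grn, Lipa, Cd68, Ctsz, Mcoln1, Atp6ap1, Atp6v1a and Tfeb were not called for a difference. Hexa peaked at nearly the same time under both schedules, ZT21.6 ± 0.983 h and ZT21.3 ± 1.27 h, with a rhythm called under dark feeding.

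**Figure D4:**
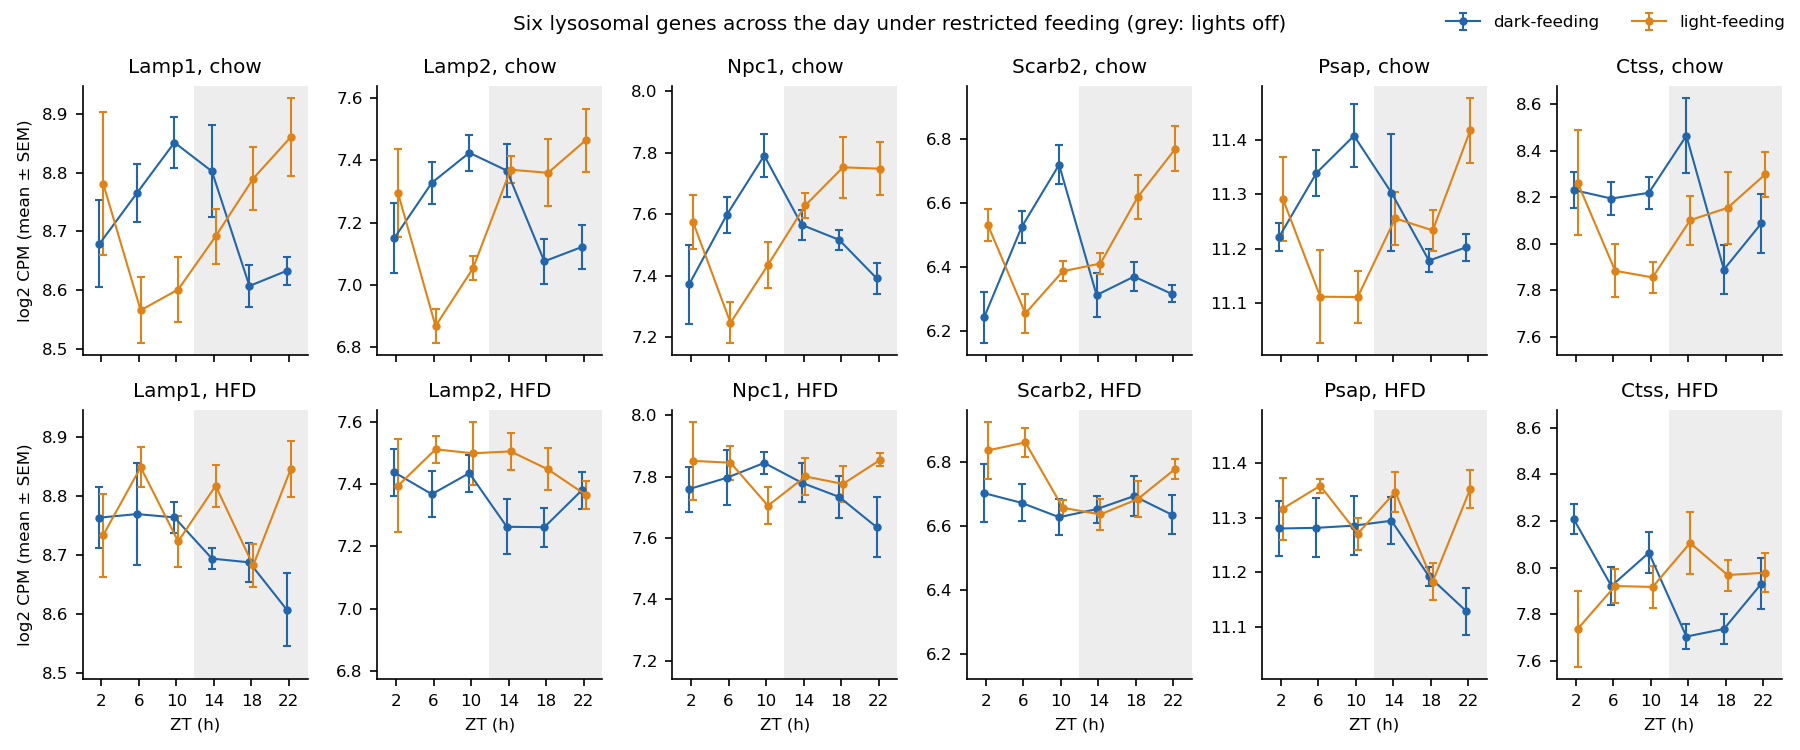
Mean log2 CPM ± SEM (y axis) against ZT in hours (x axis) of Lamp1, Lamp2, Npc1, Scarb2, Psap and Ctss under dark (blue) and light feeding (orange), on chow (upper row) and HFD (lower row, same scale for a gene), with 5 or 6 libraries a point. On chow the 2 lines cross, with the dark-fed line higher at ZT6 and ZT10 and the light-fed line higher at ZT22 in all 6 panels.

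**Figure D5:**
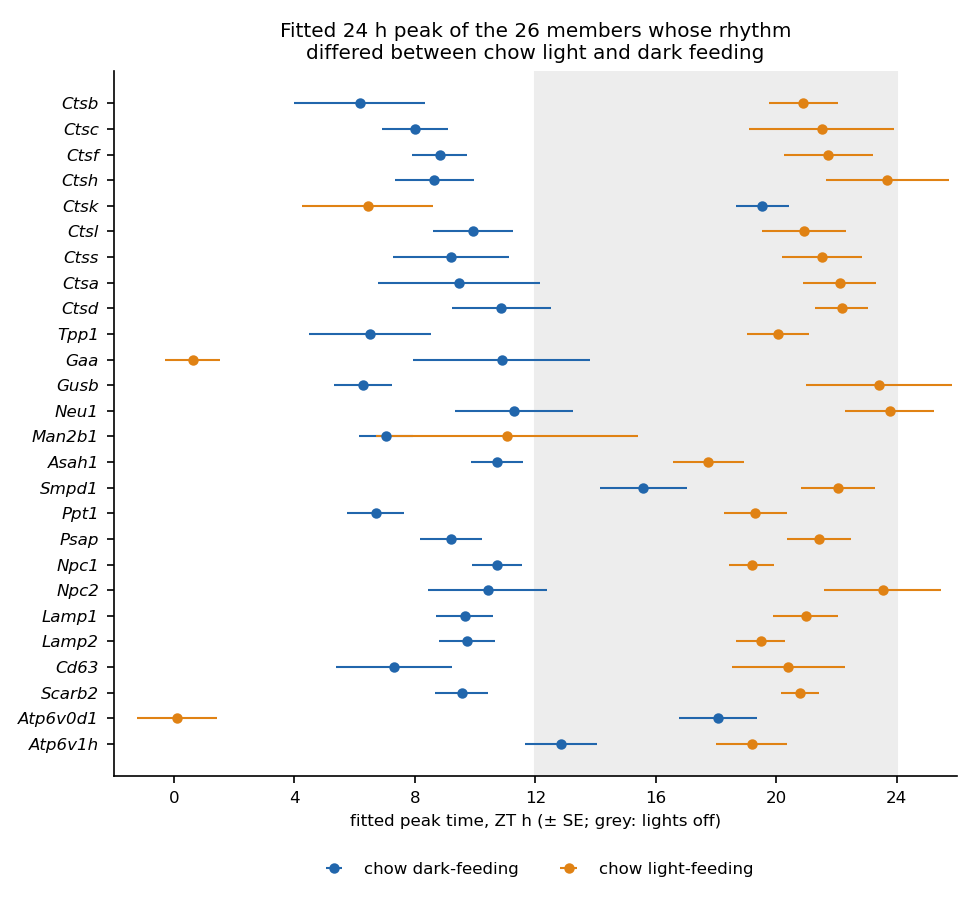
Fitted peak time in ZT hours (x axis, ± SE) of the 26 members (y axis) whose rhythm differed between light feeding (orange) and dark feeding (blue) on chow. Of the 26, 22 blue points lie in the light phase and 22 orange points in the dark phase. Ctsk and Atp6v0d1 have the reverse order, the orange point of Atp6v0d1 within its SE of lights on.

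Cell type markers moved with these rhythms, and their part in them was not tested beyond the fit given here. The microglial score peaked at ZT8.52 ± 1.26 h under chow dark feeding and at ZT22.6 ± 1.83 h under light feeding, with peak-to-trough sizes of 0.39 and 0.26. The oligodendrocyte score peaked at ZT10.7 ± 1.36 h and ZT19.0 ± 0.90 h, with sizes of 0.33 and 0.47. The difference in rhythm was called for 14 of 17 microglial, 11 of 12 oligodendrocyte, 9 of 15 neuronal and 6 of 6 erythrocyte markers. With 5 marker scores as covariates 8 members were called for a difference, 5 of them among the 26: Scarb2 (0.65, adjusted p = 0.000451), Npc1 (0.31, adjusted p = 0.00789), Ppt1 (0.33, adjusted p = 0.00811), Npc2 (0.29, adjusted p = 0.0218) and Lamp2 (0.30, adjusted p = 0.0301). With runs of consecutive titles counted as the unit, 12 to 17 a group, 2 members remained called, Scarb2 (0.83) and Lamp2 (0.90). Without the libraries rich in erythrocyte RNA 22 members were called, and without ZT10 there were 14.

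On HFD the rhythmic members were mostly those whose highest r was with the microglial score. Under HFD ad libitum feeding 9 members passed (24.3%, against 19.6% of all genes), under dark feeding 15 (40.5%, against 27.5%) and under light feeding 0 (against 0.841% of all genes, with 8 members at an unadjusted p under 0.05). For ad libitum feeding the smallest adjusted p were those of Ctsz (peak to trough 0.51, adjusted p = 0.000252), Ctsh (peak to trough 0.40, adjusted p = 0.00182), Tfeb (peak to trough 0.51, adjusted p = 0.0036) and Npc2 (peak to trough 0.40, adjusted p = 0.00646). For dark feeding they were those of Man2b1 (peak to trough 0.31, adjusted p = 0.00021), Ctsz (peak to trough 0.69, adjusted p = 0.000251), Cd68 (peak to trough 0.81, adjusted p = 0.000846) and Ctsh (peak to trough 0.48, adjusted p = 0.00197). Scarb2 came nearest under light feeding (peak to trough 0.24, adjusted p = 0.067). Microglia-leaning members made up 7 of the 9 and 10 of the 15 calls. Over all 37 members the median peak to trough was 0.16 under HFD ad libitum and HFD dark feeding. Over all genes it was larger, at 0.20 and 0.22. The microglial score peaked at ZT3.77 ± 0.82 h under HFD ad libitum and at ZT5.08 ± 0.78 h under HFD dark feeding, and 13 and 11 of 17 microglial markers were rhythmic there. With the marker scores as covariates the members called were 3 and 2, and with runs of titles as the unit 0 and 1 (Ctsz). Without ZT18 they were 1 and 9, and dark feeding also gave 9 without ZT2. Light feeding gave 4 without ZT22.

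Between light and dark feeding on HFD 15 members (40.5%) differed in rhythm, where 21.6% of all genes did. They were 7 of 8 cysteine cathepsins, 3 of 7 lipid genes, 2 of 4 pump genes and Man2b1, Cd68 and Tfeb, and 9 of the 15 were microglia-leaning. The median size of the difference was smaller over the 37 members (0.22) than over all genes (0.29). The smallest adjusted p were those of Man2b1 (size 0.40, adjusted p = 0.00131), Ctsz (size 0.82, adjusted p = 0.0026), Ctsk (size 0.59, adjusted p = 0.00298) and Ctsc (size 0.88, adjusted p = 0.006). Ctsz averaged 35.3 ± 5.06 CPM (SD, n = 6) at ZT2 and 22.2 ± 3.49 CPM (SD, n = 5) at ZT18 under dark feeding, and 21.9 ± 4.64 CPM (SD, n = 5) at ZT2 and 31.6 ± 7.06 CPM (SD, n = 6) at ZT14 under light feeding. Its fitted peak went from ZT5.49 ± 0.649 h to ZT11.9 ± 1.34 h, and that of Cd68 from ZT5.18 ± 0.726 h to ZT9.89 ± 1.17 h. Of the 15, 10 peaked in the light phase under dark feeding. Under light feeding 8 peaked in the light phase, when food was present, and 7 in the dark phase, unlike on chow. Over the 15 members the shortest gap between the peaks had a median of 8.13 h (4.71 to 11.7 h). No member was called rhythmic under HFD light feeding, so each gap uses a peak from a fit without a called rhythm. Members were again chosen by the difference itself. Microglial markers differed in 12 of 17 and oligodendrocyte markers in 2 of 12. With the marker scores as covariates 4 members remained called, Man2b1, Tfeb, Ctsk and Ctsf, and with runs of titles as the unit 0 did. Without ZT2 or ZT14 the count was 5.

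Rhythms were also compared between diets. Under ad libitum and under dark feeding 0 members differed, and 0% of all genes did in each. At an unadjusted p under 0.05 there were 9 and 8 members. The nearest were Gla (size 0.38, adjusted p = 0.117) and Ctsh (size 0.67, adjusted p = 0.117) under ad libitum and Scarb2 (size 0.40, adjusted p = 0.127) and Asah1 (size 0.30, adjusted p = 0.133) under dark feeding. Under light feeding 5 members (13.5%) differed, against 9.18% of all genes. These were Scarb2 (size 0.49, adjusted p = 0.00241), Lamp2 (size 0.65, adjusted p = 0.00779), Npc1 (size 0.48, adjusted p = 0.0192), Ctsz (size 0.71, adjusted p = 0.0377) and Ctsc (size 0.81, adjusted p = 0.0406). For Scarb2 the light-fed means at ZT6 and ZT22 were 76.3 ± 7.53 CPM (SD, n = 5) and 109 ± 13.3 CPM (SD, n = 6) on chow and 116 ± 9.02 CPM (SD, n = 6) and 109.8 ± 6.07 CPM (SD, n = 6) on HFD. At ZT6 the light-fed chow libraries were at their lowest mean of Scarb2 and the HFD libraries at their highest. For Lamp2 the means at ZT6 were 117 ± 9.62 CPM (SD, n = 5) on chow and 183 ± 13.6 CPM (SD, n = 6) on HFD, and at ZT22 179 ± 31.3 CPM (SD, n = 6) and 165 ± 13.0 CPM (SD, n = 6). The rhythm of 5 of 17 microglial, 3 of 12 oligodendrocyte, 2 of 15 neuronal, 8 of 14 astrocyte and 2 of 11 endothelial markers differed as well. With the marker scores as covariates 0 members differed, and with runs of titles as the unit 0. The light-feeding count was 0 without ZT6, 3 without ZT10 or ZT14 and 11 without ZT18. Dark feeding gave 4 and 3 members without ZT10 and ZT18.

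Tfeb, the regulator named above, had a rhythm in 4 of 6 groups, those in which food was present in the dark phase. It was called in both chow groups and in neither HFD group with the marker scores as covariates, and with runs of titles as the unit in none of the 4. Its fitted peak was at ZT16.7 ± 0.893 h in chow ad libitum (peak to trough 0.60, adjusted p = 0.0108), ZT17.3 ± 0.917 h in chow dark, ZT17.4 ± 0.931 h in HFD ad libitum and ZT17.9 ± 1.04 h in HFD dark feeding (peak to trough 0.37, adjusted p = 0.0121). In chow ad libitum libraries it averaged 31.9 ± 5.48 CPM (SD, n = 7) at ZT2 and 50.7 ± 8.72 CPM (SD, n = 6) at ZT18. Under light feeding it averaged 49.7 ± 5.11 CPM (SD, n = 5) at ZT2, 34.9 ± 4.67 CPM (SD, n = 5) at ZT14 and 52.2 ± 16.2 CPM (SD, n = 6) at ZT18 on chow. The chow light-fed libraries at ZT18 were spread, from 33.0 to 70.8 CPM, and no rhythm was called. On HFD light feeding the highest mean of Tfeb was 46.5 ± 5.12 CPM (SD, n = 5) at ZT2 and the lowest 35.9 ± 2.62 CPM (SD, n = 6) at ZT14. The difference between light and dark feeding was called on HFD (size 0.53, adjusted p = 0.0156) and not on chow (size 0.44, adjusted p = 0.145). The median level of Tfeb lay between 36.4 and 40.4 CPM in all 6 groups, and no comparison of means called it.

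Related genes outside the 37 members moved in both directions with diet. Their counts are given for ad libitum, dark and light feeding in turn, and up to 3 genes among those with the smallest adjusted p are named. Of all genes 9.96%, 22.8% and 25.2% rose and 10.1%, 23.1% and 25.1% fell, and the counts were not tested against these shares. Of 27 other hydrolases and activators 2, 4 and 7 rose and 3, 4 and 4 fell. The asparaginyl endopeptidase Lgmn fell by 0.16 and the fucosidase Fuca1 by 0.19 under ad libitum feeding, and Arsb rose by 0.21 and Ids by 0.20 under light feeding. Of 20 other membrane proteins and transporters 3, 5 and 9 rose and 2, 3 and 4 fell. Slc38a9, the arginine sensor, rose by 0.19, 0.17 and 0.22, Mfsd8 by 0.14 and 0.19 under ad libitum and dark feeding, and the metal transporter Slc11a1 fell by 0.39 under dark feeding. Of 15 other subunits of the proton pump 0, 2 and 4 rose and 2, 8 and 5 fell. The stalk subunit gene Atp6v1e1 fell by 0.35 and 0.28 and Atp6v1g2 by 0.23 and 0.23 under dark and light feeding, while the member Atp6ap1 rose in both.

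Of 12 genes of sorting to lysosomes 2, 3 and 4 rose and 0, 3 and 3 fell. The sorting receptor Sort1 rose by 0.13, 0.22 and 0.21, and the retromer subunit Vps35 by 0.16 and 0.28 under dark and light feeding. Of 20 genes of the TFEB family and the mTOR kinase that holds TFEB in the cytoplasm 2, 4 and 5 rose and 1, 4 and 3 fell. Fnip1, a partner of folliculin, rose by 0.21, 0.34 and 0.30, and Fnip2 by 0.24 and 0.25 under dark and light feeding. Of the Ragulator subunit genes, Lamtor2 fell by 0.33 under dark feeding and Lamtor4 by 0.30 under light feeding. Of 4 cathepsin inhibitors 0 rose and 2, 3 and 3 fell, with the secreted cystatin Cst3 down by 0.36, 0.52 and 0.44. Between light and dark feeding on chow the rhythm differed for 17 of 27 hydrolases, 10 of 20 membrane genes, 6 of 15 pump subunits, 3 of 12 sorting genes, 9 of 20 TFEB and mTOR genes and 2 of 4 inhibitors, where 37.0% of all genes did. The smallest adjusted p among them were those of the calcium channel Tpcn2 (0.73, adjusted p = 1.2e-05), Sort1 (0.65, adjusted p = 1.2e-05) and Arsb (0.63, adjusted p = 3.36e-05).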

How the data were processed

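The 200 libraries were grouped by the labels' diet and feeding schedule, with 33 or 34 a group. The authors deposited a table of estimated counts per gene, of which 8.03% of entries were not whole; these were rounded. They also deposited FPKM values (17611 genes), used for levels between genes and as an alternative on log2(FPKM + 1). The submitters' processing notes name the genome build Rnor_6.0. Which aligner and counter made the tables is not given in the sources used here. No 2 libraries agreed within sampling noise (closest pair, chi-square per degree of freedom 2.29).

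Counts were scaled by TMM over all libraries and 14393 genes were kept by edgeR's expression filter (edgeR 4.0.16, R 4.3.3). Quasi-likelihood tests were made for diet and schedule with time as a factor, their interaction, 24 h cosines and differences between cosines, with Benjamini-Hochberg adjustment over all genes and a threshold of 0.05. Log2 CPM used a prior count of 2. Peak times come from cosines fitted to log2 CPM, with an SE. DESeq2 1.42.0 and limma 3.58.1 were alternatives, and correlations and figures used Python 3.11.15. The fitting steps were tested on simulated counts. Other alternatives were size factors, no expression filter, leaving out each time, title numbers or runs of titles, and marker scores. Leaving out the libraries rich in erythrocyte RNA, and the marker scores in rhythm differences, were added after seeing the data.

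All members may be named. Given in full were up to 6 members per direction with the smallest adjusted p (otherwise the 2 smallest), up to 4 per rhythm (otherwise 1), the 3 highest and 3 lowest r per score, and up to 3 genes of each other list. Others were named after their values were seen, and 1 gene of the other lists is not reported here. The members and lists were chosen with earlier results of these data known.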

Additional observations from a re-analysis of the deposited data

Results flagged for a closer look

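These members differed in an effect between groups by a test of the difference itself (edgeR, adjusted p under 0.05). The effect of light against ad libitum feeding depended on diet for Ctsb (0.16), Mcoln1 (0.15) and Neu1 (0.15), given as log2 differences of the differences. The title order of the HFD ad libitum libraries cannot be told apart from part of this effect. Under light feeding, the daily rhythm differed between the diets for Ctsc (0.81), Ctsz (0.71), Lamp2 (0.65), Npc1 (0.48) and Scarb2 (0.49). These and the following values are the peak-to-trough size of the difference between 2 cosines, in log2.

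Between light and dark feeding on chow the rhythm differed for Asah1 (0.36), Atp6v0d1 (0.26), Atp6v1h (0.32), Cd63 (0.41), Ctsa (0.26), Ctsb (0.35), Ctsc (0.81), Ctsd (0.41), Ctsf (0.38), Ctsh (0.63), Ctsk (0.64), Ctsl (0.58), Ctss (0.73), Gaa (0.39), Gusb (0.32), Lamp1 (0.53), Lamp2 (0.86), Man2b1 (0.25), Neu1 (0.27), Npc1 (0.77), Npc2 (0.65), Ppt1 (0.54), Psap (0.49), Scarb2 (0.80), Smpd1 (0.29) and Tpp1 (0.35). On HFD it differed for Atp6v0d1 (0.32), Atp6v1a (0.49), Cd68 (0.92), Ctsc (0.88), Ctsf (0.28), Ctsh (0.56), Ctsk (0.59), Ctsl (0.43), Ctss (0.66), Ctsz (0.82), Lipa (0.49), Man2b1 (0.40), Npc2 (0.58), Smpd1 (0.26) and Tfeb (0.53).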

How the results depend on the processing

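The members called are given under each setting that moved their number by over 1.5 times. With the marker scores as covariates they were 0, 5 and 12 for diet under ad libitum, dark and light feeding. HFD dark against ad libitum feeding gave 1 and light against dark 0. The interaction with light feeding gave 0. Rhythmic members were then 5 in chow dark, 0 in chow light, 3 in HFD ad libitum, 2 in HFD dark and 1 in HFD light feeding. Differences in rhythm were 8 between chow schedules, 4 between HFD schedules and 0 between diets under light feeding. With runs of titles as the unit the diet counts were 0, 6 and 7, and those of HFD light against ad libitum, HFD light against dark and the light interaction 0. Rhythmic members were then 0, 0 and 0 on chow, 0 in HFD ad libitum and 1 in HFD dark feeding, and differences 2 between chow schedules, 0 between HFD schedules and 0 between diets under light feeding. With the title number as a spline HFD dark against ad libitum gave 3, light against ad libitum 0 and light against dark 0. DESeq2 gave 1 for HFD dark against ad libitum and 2 for light against dark. Without the expression filter HFD light against dark gave 0 and the chow light rhythm 9. On log2(FPKM + 1) with limma the chow ad libitum rhythm gave 2. With time as a factor the rhythm counts were 5 for HFD ad libitum and 6 for HFD light feeding. Without the libraries rich in erythrocyte RNA HFD light against dark gave 0 and the light interaction 5.

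Leaving out a time changed these counts. For diet, ad libitum gave 3 without ZT14 and 2 without ZT18, and dark feeding 10 without ZT2. HFD dark against ad libitum gave 1 without ZT10, light against ad libitum 6 without ZT14 and 3 without ZT22, and light against dark 0 without ZT6, ZT14 or ZT18. The interaction gave 1 for dark feeding without ZT18, and for light feeding 0 without ZT2, ZT6 or ZT10 and 11 without ZT18. The chow ad libitum rhythm gave 0 without ZT2 or ZT18 and 2 without ZT6 or ZT14. Chow dark feeding gave 6 without ZT10 or ZT18, and chow light feeding 3, 5 and 9 without ZT6, ZT10 and ZT22. HFD ad libitum gave 1 without ZT18, HFD dark feeding 9 without ZT2 or ZT18 and HFD light feeding 4 without ZT22. Differences between diets gave 4 and 3 under dark feeding without ZT10 and ZT18, and 0, 3, 3 and 11 under light feeding without ZT6, ZT10, ZT14 and ZT18. Chow schedules gave 14 without ZT10, and HFD schedules 5 without ZT2 or ZT14.

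Of 2040 values of called members under the alternatives 1418 kept their call, 611 lost it and 11 turned direction. With marker scores Ctsh (0.047), Ctsl (0.0094) and Ctss (0.040) turned under dark feeding, and Ctsh (0.061), Ctss (0.067), Ctsz (0.014) and Npc2 (0.093) under light feeding, in the diet comparison. With the title spline Ctsb (-0.0020), Lamp1 (-0.013), Ppt1 (-0.023) and Scarb2 (-0.087) turned in HFD light against ad libitum feeding. The causes were not tested. Scarb2 (diet under dark and light feeding, and the chow rhythm difference), Lamp2 (the chow rhythm difference), Npc1 (diet under dark feeding) and Gla (diet under light feeding) kept their calls under every alternative run. No paired analysis was possible because the labels give no replicate numbers shared between groups. Depth limits the low members most, such as Cd68 at 10.2 CPM.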

Other observations

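Genes of the same pathways outside the 37 members also differed between schedules on HFD. Of 20 genes of the TFEB family and its kinase, 2 rose and 2 fell in light against ad libitum feeding, where 5.70% of all genes rose and 5.00% fell. Rptor, the scaffold of the mTORC1 kinase, rose by 0.14 (SE 0.030, edgeR adjusted p = 0.00103) and Mtor by 0.10 (SE 0.024, adjusted p = 0.00506), while the activating GTPase Rheb fell by 0.17 (SE 0.055, adjusted p = 0.0336). Of 27 hydrolases 6 rose and 0 fell, with Arsb (0.15, adjusted p = 0.00102) and Hyal2 (0.18, adjusted p = 0.00353) at the smallest p. The title series of the HFD ad libitum libraries applies to these values too.

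In rhythm, light and dark feeding on HFD differed for 5 of the 20 TFEB and mTOR genes, 4 of 27 hydrolases, 4 of 20 membrane genes, 5 of 15 pump subunits, 0 of 12 sorting genes and 1 of 4 inhibitors. Of all genes 21.6% did, so these counts are no result about the lists. Rptor (size 0.38, adjusted p = 0.000743) and Mtor (size 0.25, adjusted p = 0.00825) were among them, as was the TFEB relative Mitf (size 0.55, adjusted p = 0.00708). The myeloid membrane genes Slc11a1 (size 0.85, adjusted p = 0.00134) and Laptm5 (size 0.89, adjusted p = 0.00326) differed, and so did the pump subunit Tcirg1 (size 0.51, adjusted p = 0.00725). The cystatin Cst7 had a size of 1.78 (adjusted p = 0.0152).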
